A study of Mus musculus with 6 samples.

Results

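The genes described here encode the machinery that copies DNA in S phase and the enzymes that supply its nucleotides. They were chosen by name: 49 genes, from origin licensing to chromatin assembly, whose mouse symbols were looked up among the 52550 Ensembl identifiers of the deposited tables, and each of the 49 had exactly 1 row. RNA came from isolated colon epithelium of Apc Min/+ males aged 5 to 6 weeks, in 3 libraries from mice gavaged with vehicle (2% Tween 80; the control group) and 3 from mice gavaged with atorvastatin at 20 mg/kg on alternate days. Both groups are heterozygous for Min, a nonsense allele of Apc, a brake on Wnt signalling whose loss starts intestinal adenomas, and no group with intact Apc was analysed here. The labels do not say how long the mice were treated, whether adenoma tissue entered the isolate, or whether each library came from a separate mouse, so the p-values below measure the spread between these libraries, which may be technical.

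Before a cell copies its genome, the origin recognition complex, CDC6 and CDT1 load the ring-shaped MCM2-7 helicase onto DNA, and geminin blocks reloading once S phase has begun. CDC45 and the GINS complex join MCM2-7 to form the active helicase, primase and the polymerases follow, and the sliding clamp PCNA, placed by the RFC loader, holds the polymerases on the template. In the colon, dividing cells lie in the lower crypt, and most of these genes are transcribed under E2F factors as cells enter S phase. Atorvastatin inhibits HMG-CoA reductase, the enzyme that makes mevalonate for cholesterol and isoprenoids.

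The start of a replication gene often carries binding sites for E2F or for the CCAAT-binding factor NF-Y. The upstream stretches of Mcm5 and Tcf19, both described below, are shown because these 2 genes had the smallest p-values of the set. Sequences are the RefSeq promoters on GRCm38.p6 (the assembly that mm10 denotes), read 5′ to 3′ on the gene's strand over the 250 bases before the start site, with capitals for matches to E2F-type letters or to CCAAT on either strand. The Mcm5 stretch lies at chr8:75109259-75109508 on the plus strand and that of Tcf19 at chr17:35516825-35517074 on the minus strand, and neither overlaps a GENCODE exon.
Mcm5: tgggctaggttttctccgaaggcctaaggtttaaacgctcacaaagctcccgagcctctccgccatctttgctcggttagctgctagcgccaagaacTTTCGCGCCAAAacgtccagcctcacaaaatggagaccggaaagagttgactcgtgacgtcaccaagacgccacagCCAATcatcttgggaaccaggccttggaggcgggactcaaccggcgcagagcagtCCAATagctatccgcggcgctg
Tcf19: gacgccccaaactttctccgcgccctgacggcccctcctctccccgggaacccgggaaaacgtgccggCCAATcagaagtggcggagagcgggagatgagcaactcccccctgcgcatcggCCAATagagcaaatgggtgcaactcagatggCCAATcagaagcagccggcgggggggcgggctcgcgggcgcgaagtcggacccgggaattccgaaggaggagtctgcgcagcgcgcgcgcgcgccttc
In Mcm5 the first capital run is a pair of overlapping E2F-type matches, TTTCGCGC and, on the other strand, TTTGGCGC. The Tcf19 stretch has 3 CCAAT boxes and none of the E2F-type letters searched.

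The E2F-type letters searched were TTTCCCGC, TTTGGCGC, TTTGCCGC and TTTCGCGC, on both strands of 300-base promoters (250 bases before and 50 after the start), where matches may overlap. Of the 49 genes, 41 had 1 or more promoters in the table. The letters were found in 15 of their 50 promoters (30%), against 2.26% of all 32851 promoters, and CCAAT in 58.0% against 37.4%. Matches upstream of the RefSeq start and outside annotated exons also occurred in Mcm6, Pola1, Uhrf1 and Cdc6. They are shown in 30-base windows because the first 3 genes were higher in every atorvastatin library and Cdc6 was not.
Mcm6: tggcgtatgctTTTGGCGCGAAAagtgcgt
Pola1: gtcatcacaggGCGCCAAAtgcactcccgc
Uhrf1: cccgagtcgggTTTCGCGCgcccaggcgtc
Cdc6: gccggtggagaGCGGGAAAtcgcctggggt
The windows lie at chr1:128359797-128359826 (minus strand), chrX:93632275-93632304 (minus), chr17:56304117-56304146 (plus) and chr11:98908002-98908031 (plus). In the GENCODE annotation Uhrf1 starts at 56303321 and Cdc6 at 98907801. Their windows therefore lie inside the annotated genes, outside exons, and are upstream only of the RefSeq start. The E2F-type letters did not sort the set by its difference between groups. The 15 genes with a match had a median log2 fold change of 0.27 and the 26 without a median of 0.27. The absence of these letters from a window says nothing about E2F binding there.

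The replication genes were higher with atorvastatin in most roles except the origin recognition complex, with a median ratio of group means of 1.29, and 4 of the 49 passed the test: Tcf19, Mcm5, Cdc45 and Mcm6, all higher. Values are FPKM (fragments adjusted for library size and for the length of each gene), and differences were tested on log2(FPKM + 1) with limma, adjusted by Benjamini-Hochberg over all 11644 genes that reached 1 FPKM in at least 3 libraries. All 49 genes were tested, and 48 of them reached 1 FPKM in all 6 libraries. The 4 calls compare with 0.404% of all tested genes called in either direction, 0.155% called higher and 0.249% called lower; none of the 49 was called lower. In 38 of the 49 genes every atorvastatin library lay above every control library, which was so for 12.0% of all tested genes, and in no gene was the order the reverse (6.05%). The median log2 fold change was 0.27 over the set, a value that 4.33% of all tested genes reached, with 47 of 49 positive, and 0.02 over all tested genes, with 57.3% positive. At an unadjusted p under 0.05, 36 of the 49 genes were higher and none lower, where 7.75% of all tested genes were higher and 4.27% lower.

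**Figure D1:**
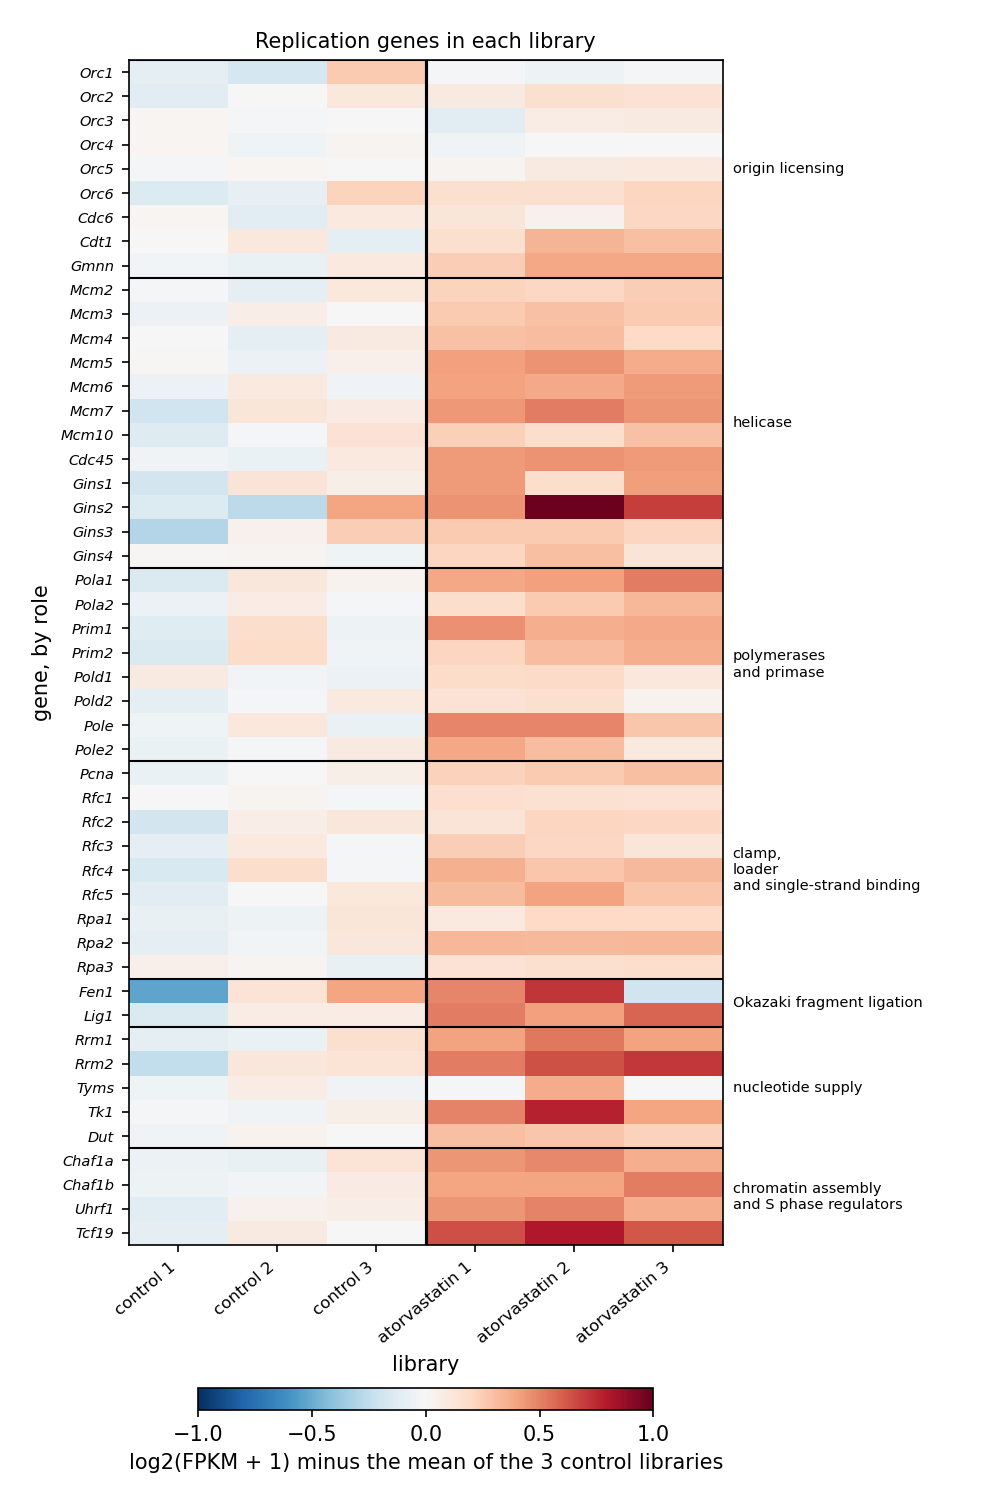
Each row is a gene and each column a library, and the colour gives log2(FPKM + 1) minus the mean of the 3 control libraries for that gene (scale from -1 to 1). Most rows are red in all 3 atorvastatin columns, and the rows Orc3, Orc4 and Orc5 are pale throughout.

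The libraries held mostly epithelial RNA. The epithelial adhesion gene Epcam was at 479 to 566 FPKM, and 8 fibroblast and endothelial markers together stayed at 0.301 to 1.01 FPKM. Markers of immune cells were low, and the mean of their summed FPKM was lower with atorvastatin in each of 3 lists: the summed FPKM of 14 T and NK cell genes was 44.7, 44.4 and 24.2 in control replicates 1, 2 and 3 and 17.7, 20.1 and 24.8 with atorvastatin. None of the 14 was at 0 in all libraries, and 3 were under 1 FPKM in all. All 9 of these 14 genes that were tested had negative fold changes. The summed FPKM of 8 B and plasma cell genes was 10.8, 11.5 and 5.13 in control and 2.85, 3.35 and 2.58 with atorvastatin. For 8 macrophage and dendritic cell genes it was 6.44, 9.73 and 4.34 in control and 3.61, 3.02 and 3.40 with atorvastatin. The mitochondrial ribosomal RNA mt-Rnr1 was at 2156, 2631 and 1828 FPKM under vehicle and 1195, 1160 and 1526 under atorvastatin. The part of these shifts in the replication genes' differences was not tested. In RNA from many cells, a higher share of cycling cells and more of an mRNA per cycling cell cannot be told apart. FPKM totals were 407857 to 430832 per library and the read depth behind a value is unknown.

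The helicase genes were higher in nearly every atorvastatin library. All 12 had positive log2 fold changes (0.21 to 0.71, median 0.31), 11 had groups that did not overlap, and 3 passed the test. Mcm5, a subunit of the MCM2-7 ring that helps form the gate through which DNA enters, lies on chromosome 8 of mm10 in the GENCODE annotation, as used for all gene positions here (75109569 to 75128439, plus strand, ENSMUSG00000005410). It was at 8.07, 7.69 and 8.32 FPKM under vehicle and 10.98, 11.32 and 10.69 under atorvastatin. The groups were separated by more than their own ranges, and the log2 fold change was 0.41 ± 0.05 (SE, limma adjusted p = 0.0314). Mcm6, another ring subunit (chromosome 1, 128331590 to 128359664, minus strand, ENSMUSG00000026355), was at 10.64, 11.98 and 10.81 FPKM under vehicle and 14.99, 14.78 and 15.26 under atorvastatin. Its log2 fold change was 0.40 ± 0.06 (SE, limma adjusted p = 0.0477), which lies at the threshold.

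Cdc45 encodes the factor that joins MCM2-7 to GINS and switches the helicase on (chromosome 16, 18780447 to 18811987, minus strand, ENSMUSG00000000028). It was at 3.63, 3.55 and 4.09 FPKM under vehicle and 5.38, 5.47 and 5.40 under atorvastatin. The 3 atorvastatin values were nearly equal, the ratio of the means was 1.44 and the log2 fold change 0.43 ± 0.06 (SE, limma adjusted p = 0.0477). An exon of Ufd1 on the opposite strand overlaps an exon of Cdc45, and the strand setting of the counting was not given in the sources used here. Mcm5, Mcm6 and Cdc45 lost their calls in most fits with 1 library left out. Each had a limma adjusted p above 0.05 without control replicate 1, atorvastatin replicate 1, atorvastatin replicate 2 or atorvastatin replicate 3. Mcm5 and Cdc45 also did so without control replicate 2, and Mcm6 without control replicate 3. Other processing choices removed calls too. Across 17 alternative fits, the call held in 9 for Mcm5, 4 for Cdc45 and 2 for Mcm6. Those for Cdc45 include a filter of 5 FPKM, which Cdc45 reached only through its atorvastatin libraries.

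The other ring subunits were also higher, without passing. Mcm7 had the largest difference of the 6 ring genes, at 7.15, 9.17 and 8.91 FPKM under vehicle and 11.6, 12.4 and 11.7 under atorvastatin (log2 fold change 0.46 ± 0.09, limma adjusted p = 0.0974). Its control values were spread, with control replicate 1 the lowest. Exons of Cops6 and Ap4m1 on the opposite strand overlap those of Mcm7. Mcm3 was at 7.29, 8.03 and 7.59 FPKM under vehicle and 9.36, 9.55 and 9.36 under atorvastatin. Mcm4 was at 8.90, 8.22 and 9.49 FPKM under vehicle and 11.09, 11.21 and 10.30 under atorvastatin. Mcm2, the ring subunit with the lowest FPKM, was at 3.71, 3.50 and 4.15 FPKM under vehicle and 4.59, 4.51 and 4.68 under atorvastatin. In each of the 6 ring genes the groups were separate. FPKM is per gene length, but the lengths behind these values are not given in the sources used here, and the GENCODE exons of Mcm2 cover 6956 bases against 3589 to 4666 in the other ring genes, so the order of the 6 levels, that of Mcm2 above all, is uncertain. Mcm6 made up 23.3% ± 1.35 (SD, n = 3) of the summed FPKM of the ring genes in control and 23.9% ± 0.709 with atorvastatin, and Mcm2 7.91% ± 0.629 and 7.32% ± 0.236. The most abundant ring gene exceeded the least abundant by 2.61 to 3.42 times across the 6 libraries.

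Outside the ring, the GINS genes differed from each other in level and in precision. Gins4 was the most abundant, at 8.46, 8.58 and 8.12 FPKM under vehicle and 9.91, 10.6 and 9.24 under atorvastatin. It had the smallest log2 fold change of the helicase genes, 0.21 ± 0.06. Gins2 had the largest of all 49 genes, 0.71 ± 0.20, but also widely spread libraries, at 2.29, 2.00 and 3.75 FPKM under vehicle and 3.91, 6.11 and 4.82 under atorvastatin (limma adjusted p = 0.237). Control replicate 3 came close to the lowest atorvastatin library. Exons of Gse1 (up to 11.1 FPKM) on the opposite strand overlap those of Gins2. Gins1, at means of 1.52 and 2.19 FPKM, and Gins3, at 1.09 and 1.45 FPKM, were near the limit of the filter, and Gins3 was the helicase gene with overlapping groups. Mcm10, which helps to activate the loaded helicase, had means of 2.08 and 2.61 FPKM.

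Origin licensing was the role with the smallest median difference. Of its 9 genes, 7 had positive log2 fold changes, the median was 0.12, and 3 had separate groups (Orc5, Cdt1 and Gmnn). None passed limma's test, and 2 had an unadjusted p under 0.05. The 6 genes of the origin recognition complex, which marks origins and recruits the other loading factors, had log2 fold changes of -0.02 to 0.18 with a median of 0.04. Orc1, the subunit whose level changes most through the cell cycle, was at 3.40, 3.14 and 4.62 FPKM under vehicle and 3.64, 3.51 and 3.64 under atorvastatin. The atorvastatin values lay inside the control range (log2 fold change -0.02 ± 0.11, limma adjusted p = 0.955). Orc4, at means of 3.99 and 3.96 FPKM, was the other gene with a negative fold change, -0.01 ± 0.05. Exons of Acvr2a and Mbd5 on the opposite strand overlap those of Orc4, and the higher of these genes reached 10.7 FPKM. Orc3 had means of 4.69 and 4.77 FPKM, and Orc2 4.08 and 4.55 FPKM. Orc6, at 3.92 and 4.54 FPKM, shares exon sequence with Vps35 on the opposite strand.

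The loading factors divided within this role. Cdc6, the ATPase that loads the helicase with the origin recognition complex, was at 1.41, 1.20 and 1.56 FPKM under vehicle and 1.60, 1.45 and 1.75 under atorvastatin, with overlapping groups. Its partner Cdt1 was at 2.41, 2.69 and 2.21 FPKM under vehicle and 2.84, 3.35 and 3.23 under atorvastatin (log2 fold change 0.27 ± 0.08, limma adjusted p = 0.248). Gmnn, which encodes the CDT1 inhibitor geminin, was at 7.43, 7.18 and 8.17 FPKM under vehicle and 9.17, 10.2 and 10.2 under atorvastatin (0.34 ± 0.07, limma adjusted p = 0.11). The ratio of Cdt1 to its inhibitor Gmnn overlapped between groups, at 0.323 ± 0.0527 (SD, n = 3) in control and 0.318 ± 0.00919 with atorvastatin.

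The contrast between helicase and origin recognition complex was visible inside each library. The mean log2(FPKM + 1) of the 6 ring genes exceeded that of the 6 Orc genes by 0.86, 0.92 and 0.80 in control replicates 1, 2 and 3 and by 1.18, 1.14 and 1.09 in atorvastatin replicates 1, 2 and 3. A factor that scales a whole library nearly cancels in this difference. The means of the Orc genes overlapped between groups, with control replicate 3 the highest of all 6 libraries at 2.36. The difference is a description of a set chosen with results known and was not tested.

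**Figure D2:**
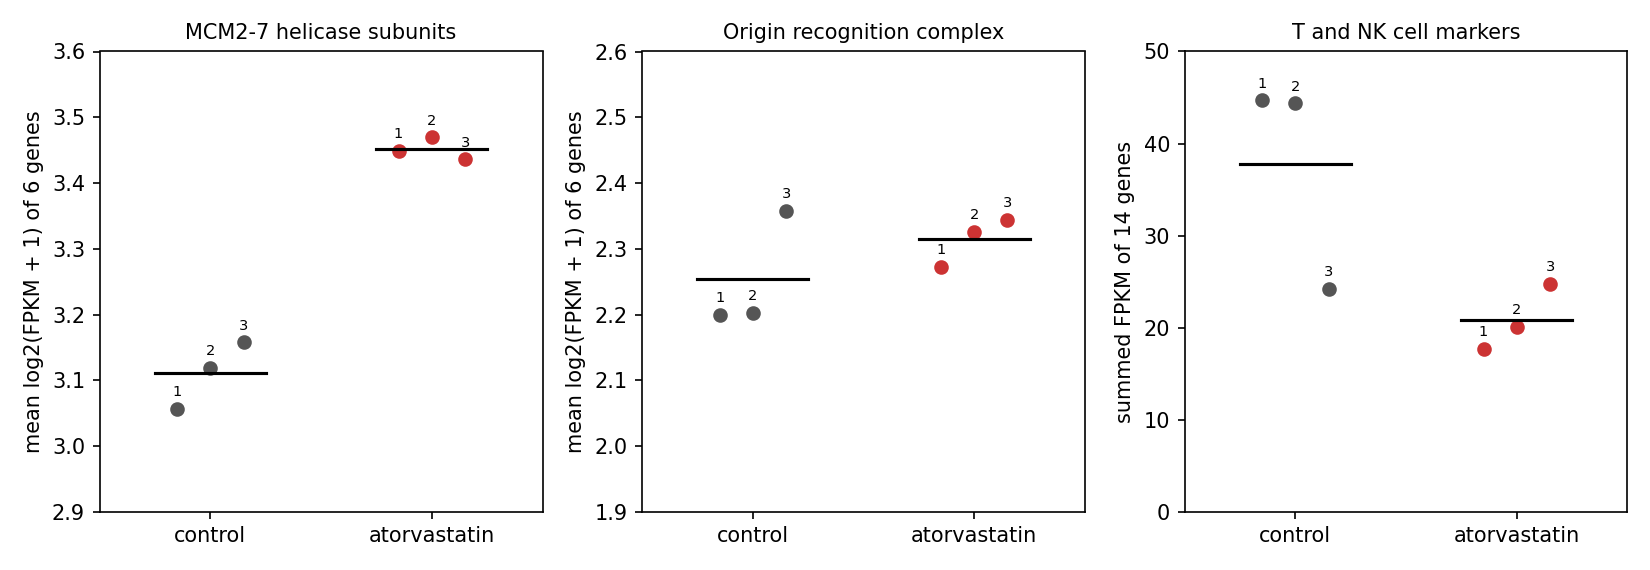
Points are libraries, numbered by replicate, and bars are group means, for the mean log2(FPKM + 1) of the 6 MCM2-7 genes, the same for the 6 Orc genes (both vertical axes span 0.7 and do not start at 0) and the summed FPKM of 14 T and NK cell markers. The ring genes lie at 3.06 to 3.16 in control and 3.44 to 3.47 with atorvastatin, the Orc genes overlap, and for lymphocyte markers control replicate 3 lies among the atorvastatin libraries.

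All 8 polymerase and primase genes had positive log2 fold changes (0.11 to 0.44, median 0.28), 7 had separate groups, and none passed limma's test, with 7 at an unadjusted p under 0.05. Pola1, the catalytic subunit of polymerase alpha, which extends the RNA primers, was at 1.92, 2.49 and 2.31 FPKM under vehicle and 3.22, 3.30 and 3.61 under atorvastatin (log2 fold change 0.44 ± 0.08, limma adjusted p = 0.0944). Pole, the catalytic subunit of the leading-strand polymerase epsilon, was at 1.20, 1.44 and 1.16 FPKM under vehicle and 2.17, 2.18 and 1.75 under atorvastatin (0.42 ± 0.09, limma adjusted p = 0.119). These low levels understate the fold on this scale, and the ratio of the means was 1.51 for Pola1 and 1.61 for Pole. Pold2, a subunit of the lagging-strand polymerase delta, had the smallest difference of the role, at 7.43, 7.94 and 8.65 FPKM under vehicle and 8.93, 9.07 and 8.20 under atorvastatin, with overlapping groups. The catalytic subunit Pold1 had means of 2.94 and 3.40 FPKM. The accessory subunits Pola2 and Pole2 had means of 5.29 and 6.52 FPKM and of 1.85 and 2.43 FPKM, and the primase genes Prim1 and Prim2 3.03 and 4.29 FPKM and 1.31 and 1.83 FPKM, in control and atorvastatin.

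Among the polymerase and primase pairs, the ratio between subunits separated the groups for alpha and, narrowly, epsilon, and not for delta or primase. The ratio of Pola1 to its partner Pola2 was 0.382, 0.443 and 0.442 in control and 0.526, 0.504 and 0.523 with atorvastatin. For Pole over Pole2 the ratio was 0.697, 0.796 and 0.573 in control and 0.799, 0.865 and 0.854 with atorvastatin. Both ratios were higher in each atorvastatin library than in any control library, though for epsilon the nearest libraries were at 0.796 and 0.799. For Pold1 over Pold2 it was 0.429, 0.359 and 0.322 in control and 0.388, 0.386 and 0.393 with atorvastatin, with overlapping groups. The primase ratio Prim1 over Prim2 overlapped, at 2.33 ± 0.145 (SD, n = 3) in control and 2.36 ± 0.278 with atorvastatin. Separate groups were not particular to these polymerases. Rpa1 over Rpa2 was lower in each atorvastatin library, at 1.39 ± 0.0218 (SD, n = 3) in control and 1.19 ± 0.0582 with atorvastatin. So was Chaf1a over Chaf1b, at 3.41 ± 0.0816 and 3.01 ± 0.333. Mcm2 over Mcm3, Orc1 over Orc2, Gins1 over Gins2, Rfc1 over Rfc2, Rrm1 over Rrm2 and Cdt1 over Gmnn overlapped. These ratios were looked at after the values were known and carry no test.

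The clamp, its loader and the single-strand binding proteins were higher by small amounts. All 9 genes had positive log2 fold changes (0.16 to 0.33, median 0.19), 8 had separate groups, and none passed limma's test, with 7 at an unadjusted p under 0.05. Pcna, which encodes the sliding clamp, was the most abundant of the 49 genes, at 31.91, 33.65 and 34.95 FPKM under vehicle and 39.4, 40.2 and 41.6 under atorvastatin (log2 fold change 0.26 ± 0.05, limma adjusted p = 0.113). The processed copy Pcna-ps2 was listed at 5.09 to 7.02 FPKM, so part of the Pcna signal may be shared with it and its own level is uncertain. Rpa2, a subunit of the protein that coats single-stranded DNA, was at 2.94, 3.10 and 3.52 FPKM under vehicle and 4.26, 4.23 and 4.27 under atorvastatin (0.33 ± 0.07, limma adjusted p = 0.112). Its partners differed less, with means of 4.42 and 5.08 FPKM for Rpa1 and 9.03 and 10.2 FPKM for Rpa3.

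Among the loader genes, Rfc1, the large subunit, had the smallest difference, at 7.68, 7.86 and 7.61 FPKM under vehicle and 8.81, 8.70 and 8.62 under atorvastatin. The groups were nevertheless separate, since both spreads were small. Rfc5 had the largest log2 fold change of the loader, 0.33 ± 0.07, and Rfc4 had 0.32 ± 0.09, though an exon of the abundant gene Eif4a2 (up to 82.2 FPKM) overlaps Rfc4 on the opposite strand. Rfc2 and Rfc3 had 0.18 ± 0.09 and 0.19 ± 0.07.

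Of the 2 genes that finish Okazaki fragments, Lig1, the DNA ligase, was at 6.36, 7.54 and 7.56 FPKM under vehicle and 10.6, 9.80 and 11.2 under atorvastatin (log2 fold change 0.50 ± 0.08, limma adjusted p = 0.065). The groups were separate, and across the 17 alternatives the limma adjusted p of Lig1 ran from 0.0385 to 0.285, under 0.05 in 1 of them (equal library totals). Fen1, the flap endonuclease, had the largest standard error of the 49 genes, at 2.28, 4.19 and 5.20 FPKM under vehicle and 5.63, 6.75 and 3.12 under atorvastatin (0.33 ± 0.31, limma adjusted p = 0.744). Atorvastatin replicate 3 was below 2 of the control libraries, and the log2 fold change of Fen1 was 0.07 without control replicate 1, 0.15 without atorvastatin replicate 2, 0.53 without control replicate 3 and 0.60 without atorvastatin replicate 3. Exons of Tmem258 and Gm10143 on the opposite strand overlap Fen1, and the higher of these genes reached 12.7 FPKM.

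Nucleotide supply had a median log2 fold change of 0.44 over 5 genes, all positive, 4 with separate groups and none past limma's test (4 at an unadjusted p under 0.05). Rrm2, the regulated subunit of ribonucleotide reductase, which makes deoxyribonucleotides, was at 4.62, 6.23 and 6.32 FPKM under vehicle and 8.53, 9.36 and 9.89 under atorvastatin (0.62 ± 0.11, limma adjusted p = 0.082). The large subunit Rrm1 was at 4.67, 4.76 and 5.74 FPKM under vehicle and 6.973, 7.681 and 6.997 under atorvastatin. Tk1, the thymidine kinase of the salvage route, was at 3.23, 3.18 and 3.46 FPKM under vehicle and 5.04, 6.29 and 4.65 under atorvastatin (0.55 ± 0.10, limma adjusted p = 0.0793). In each of these 3 genes the lowest atorvastatin library exceeded the highest control library. Tyms, the thymidylate synthase of the route that makes thymidylate anew, differed from them: it was at 3.36, 3.73 and 3.38 FPKM under vehicle and 3.46, 4.81 and 3.47 under atorvastatin. Only atorvastatin replicate 2 stood above the control range of Tyms (log2 fold change 0.12 ± 0.11, limma adjusted p = 0.744). Dut, which removes dUTP, had means of 4.47 and 5.59 FPKM and separate groups.

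All 4 genes of chromatin assembly and S phase regulation had separate groups, with log2 fold changes of 0.43 to 0.69 (median 0.43), and 1 passed. Tcf19, an S phase gene, lies on chromosome 17 (35512734 to 35516824, minus strand, ENSMUSG00000050410). It was at 2.83, 3.32 and 3.06 FPKM under vehicle and 5.36, 6.08 and 5.25 under atorvastatin. Its level rose 1.81 times, a log2 fold change of 0.69 ± 0.08 (SE, limma adjusted p = 0.021), and the call held in 12 of 17 alternatives, among them a filter of 5 FPKM that Tcf19 reached only through its atorvastatin libraries, though not without control replicate 1, atorvastatin replicate 1 or atorvastatin replicate 3. Uhrf1, which directs maintenance methylation to newly copied DNA, was at 7.66, 8.57 and 8.75 FPKM under vehicle and 11.67, 12.15 and 10.95 under atorvastatin (0.43 ± 0.07, limma adjusted p = 0.0602). Chaf1a and Chaf1b, subunits of the histone chaperone CAF-1, which places new nucleosomes behind the fork, gave like values. Chaf1a was at 4.24, 4.18 and 4.99 FPKM under vehicle and 6.40, 6.63 and 6.04 under atorvastatin (0.43 ± 0.07, limma adjusted p = 0.0725). Exon sequence of Ubxn6 (up to 6.64 FPKM) on the opposite strand overlaps that of Chaf1a. Chaf1b was lower, at 1.23, 1.26 and 1.44 FPKM under vehicle and 2.03, 2.04 and 2.30 under atorvastatin, so the ratio of its means, 1.62, exceeded the 1.42 of Chaf1a.

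**Figure D3:**
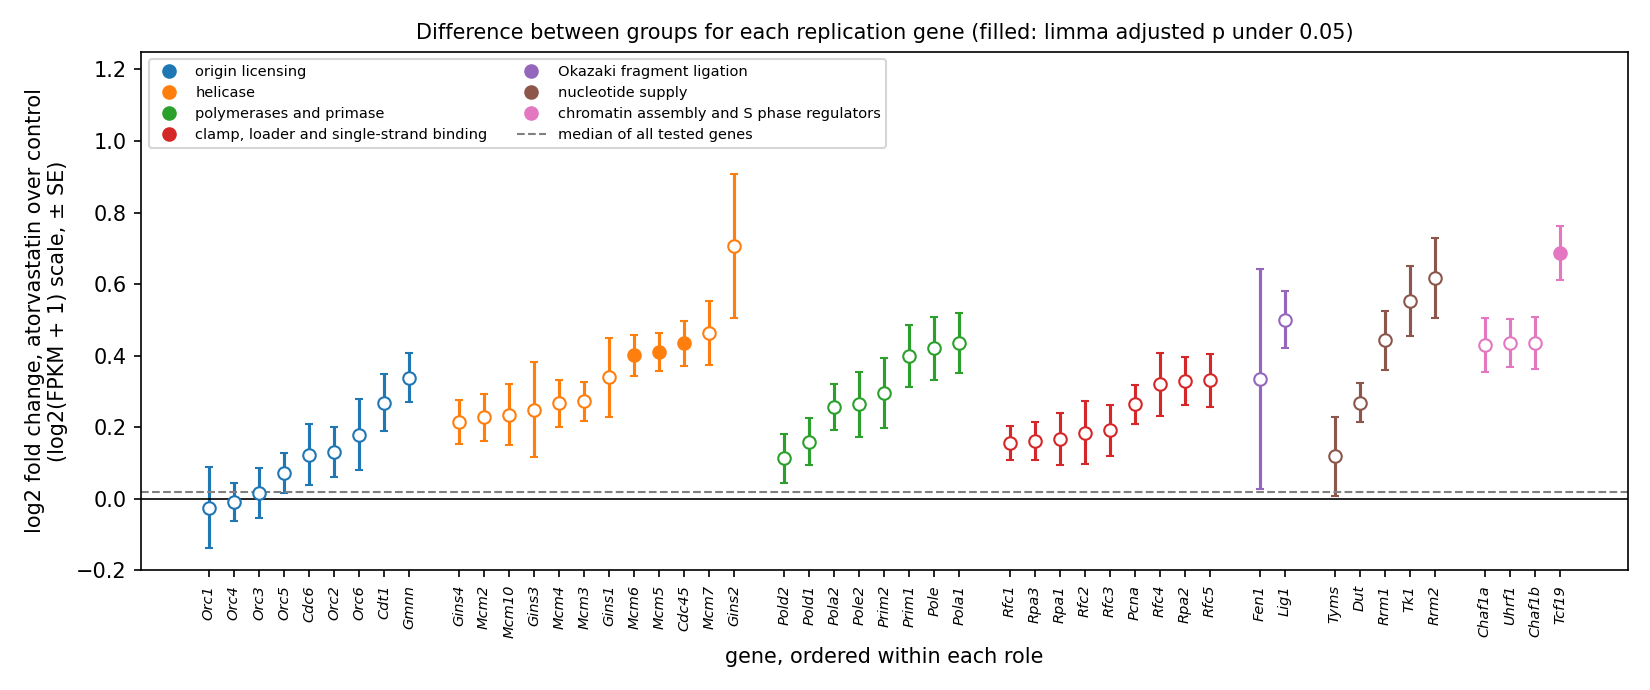
Each point is the log2 fold change of a gene (atorvastatin over control, log2(FPKM + 1) scale) with its standard error, in colours by role, filled where limma's adjusted p was under 0.05, and the dashed line is the median of all tested genes, 0.02. Orc1, Orc3, Orc4 and Orc5 lie nearest to that line, Orc2 and Orc6 are at 0.13 and 0.18, and Tcf19, Cdc45, Mcm5 and Mcm6 are filled.

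The libraries within a group were not alike for these genes. Control replicate 1 was the lowest of its group in 31 of 49 genes and control replicate 3 the highest in 28. The median deviation from the control mean was -0.07 in control replicate 1 and 0.07 in control replicate 3, on the log2 scale, where all tested genes had 0.015 and -0.005. The atorvastatin libraries lay closer together, with median deviations of -0.01, 0.02 and 0.003. With control replicate 1 left out no replication gene passed limma's test, 31 were higher at an unadjusted p under 0.05, and their median log2 fold change was 0.24.

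Most other genes of the same process had positive differences too. Of 31 further replication factors 29 were tested, 27 had positive log2 fold changes (median 0.20), 16 had separate groups with atorvastatin higher, and none passed limma's test (14 higher at an unadjusted p under 0.05). Dna2, among the 16, reached the filter of 1 FPKM only through its atorvastatin libraries. Chtf18 and Timeless, also among the 16, fell below 1 FPKM in part of the control libraries, so the filter favoured them too. Dnmt1, the maintenance DNA methyltransferase that works with UHRF1, was at 8.68, 8.85 and 9.16 FPKM under vehicle and 11.4, 12.4 and 11.5 under atorvastatin (0.37 ± 0.05, limma adjusted p = 0.0512). Clspn, which encodes the fork checkpoint protein claspin, was at 1.60, 1.98 and 2.38 FPKM under vehicle and 3.22, 3.41 and 3.38 under atorvastatin. Hells and Tipin, a chromatin remodeller and a fork protection factor, had log2 fold changes of 0.34 ± 0.06 and 0.36 ± 0.06. Among the exceptions, Top1 and Pold4 had -0.12 ± 0.08 and -0.12 ± 0.11.

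The wider enzymes of nucleotide synthesis had a smaller median difference than the 5 nucleotide supply genes above. Of 22 tested, 18 had positive log2 fold changes (median 0.16), 8 had separate groups with atorvastatin higher, and none passed limma's test (8 higher and 1 lower at an unadjusted p under 0.05). Dhodh (separate groups) and Dctd (overlapping groups), both counted as higher at that unadjusted p, fell below 1 FPKM in part of the control libraries. The filter therefore favoured their place in these counts. The purine precursor enzyme Prps2 and the salvage kinase Dck had log2 fold changes of 0.22 ± 0.06 and 0.21 ± 0.05. The gene lower at that unadjusted p was Samhd1, which degrades deoxynucleotides and is also induced by interferon. It was at 7.89, 8.87 and 6.97 FPKM under vehicle and 6.15, 7.01 and 6.14 under atorvastatin, with overlapping groups (-0.26 ± 0.09, limma adjusted p = 0.328). Rrm2b, Umps and Prps1 also had negative log2 fold changes, -0.11, -0.06 and -0.02.

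Set beside 30 mitotic genes, the replication genes had a smaller median difference on the log2(FPKM + 1) scale. That scale understates changes of low genes, and the replication genes had the lower mean in control (2.38 against 2.935). The part of the scale in this contrast was not tested. All 30 mitotic genes had positive log2 fold changes (median 0.36), yet 11 of 30 had separate groups, against 38 of 49, and none passed limma's test (18 higher at an unadjusted p under 0.05). Their mean log2(FPKM + 1) was 2.745, 2.897 and 3.163 in control and 3.26, 3.49 and 3.13 with atorvastatin, so that atorvastatin replicate 3 lay below control replicate 3. For the 49 replication genes it was 2.29, 2.40 and 2.45 in control and 2.66, 2.71 and 2.66 with atorvastatin, with no overlap. No test of the difference between the lists was made. Kif11, a spindle motor gene, was at 9.537, 10.80 and 12.97 FPKM under vehicle and 14.81, 18.47 and 14.99 under atorvastatin, and Ttk, a spindle checkpoint kinase gene, at 1.98, 2.38 and 2.95 against 3.70, 4.20 and 3.39 FPKM.

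Upstream regulators of S phase were split. Of 27 genes of the G1 cyclin and E2F list 25 were tested, 20 had positive log2 fold changes (median 0.07), 8 had separate groups with atorvastatin higher, and none passed limma's test (8 higher at an unadjusted p under 0.05). E2f2, an activating E2F gene, was at 5.52, 5.33 and 5.68 FPKM under vehicle and 7.64, 7.68 and 7.09 under atorvastatin (0.38 ± 0.06, limma adjusted p = 0.0525). E2f8, a repressive E2F gene, was at 3.62, 4.10 and 4.66 FPKM under vehicle and 6.04, 6.32 and 6.14 under atorvastatin (0.49 ± 0.08, limma adjusted p = 0.0678). Cdk4, the G1 kinase gene, had 0.30 ± 0.06 and separate groups, whereas the D cyclin genes Ccnd1, Ccnd2 and Ccnd3 had -0.08, -0.09 and -0.40 and overlapped. The value of Ccnd3 rested on atorvastatin replicate 3, at 0.634 FPKM. Its atorvastatin replicates 1 and 2, at 2.605 and 2.396 FPKM, lay within the control range of 2.377 to 2.975. Among crypt base and progenitor genes, 8 of 10 were tested, 6 had positive fold changes (median 0.135) and none passed limma's test (2 higher at an unadjusted p under 0.05). The stem cell marker Lgr5 was at 0.691, 0.627 and 0.706 FPKM under vehicle and 1.06, 1.16 and 1.03 under atorvastatin, and Smoc2 at 5.624, 5.094 and 4.598 against 6.52, 7.59 and 6.11 FPKM. Lgr5 reached the filter of 1 FPKM only through its atorvastatin libraries, so the filter favoured its place in these counts. The other 8 genes of the list had overlapping groups, and Ephb2 and Sox9 had log2 fold changes of -0.05 and -0.04.

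**Figure D4:**
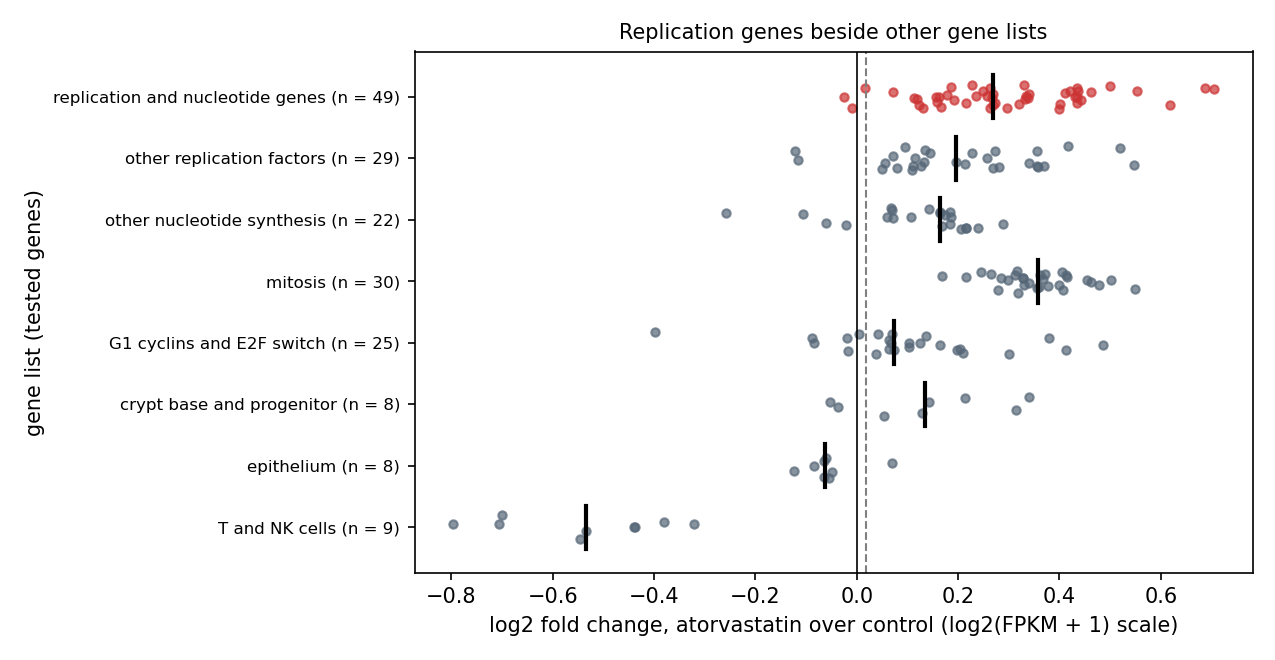
Each point is a tested gene's log2 fold change (atorvastatin over control, log2(FPKM + 1) scale), the short black bars are list medians, and the dashed line is the median of all tested genes, 0.02. The medians of the replication and mitotic genes, 0.27 and 0.36, lie to the right of that line, with Orc1, Orc3 and Orc4 to its left, and that of the T and NK cell genes, -0.535, to the left.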

How the data were processed

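The deposited values were FPKM, 1 per Ensembl gene and library, as read from the values: per the submitters' processing notes, the authors used FastQC 0.11.2, Bowtie (version not given) and mm10. The quantification tool, annotation, strand setting and treatment of reads mapping to several places are not given in the sources used here. A supplied gene table gave symbols for 99.72% of identifiers; positions came from GENCODE M21. The commonest value of short genes put the relative depth of the libraries at 0.996 to 1.14 times that of control replicate 1. Absolute depth is unknown, so no counting interval is given.

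Genes reaching 1 FPKM in 3 or more of the 6 libraries were compared on log2(FPKM + 1), a pseudocount of 1, with limma 3.58.1 in R 4.3.3 (trended, robust, two-sided, Benjamini-Hochberg adjusted p under 0.05). This scale understates changes of low genes. The code was tested on simulated data. The genes, roles and other lists were chosen with earlier results of these data known. Full statistics are given for called genes and the 2 smallest p-values of each role, and library values also for the lowest fold change of each role and the MCM2-7 genes. Up to 4 genes of smallest p are named from other lists, and some genes outside this rule were named after their values were seen. The fits were repeated under other pseudocounts, filters, scalings and variance settings, with a replicate block, and with each library left out.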

Additional observations from a re-analysis of the deposited data

How the results depend on the processing

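The direction of each role's median held in all 17 alternatives, and the calls did not. The count of called replication genes fell from 4 to 2 with a pseudocount of 0.1 or 0.5, with median-ratio scaling, equal totals, totals without the most abundant genes, or no trend and no robust fit. It was 0 with no filter on low values, where limma called 2 genes of all tested instead of 47 (36 replication genes were higher at an unadjusted p under 0.05). With a library left out it ran from 0 to 5, and the count over all genes from 2 to 67. It was 0 without control replicate 1, atorvastatin replicate 1 or atorvastatin replicate 3 (31, 32 and 32 higher at an unadjusted p under 0.05), 1 without atorvastatin replicate 2, 2 without control replicate 2 and 5 without control replicate 3. The labels do not say whether same-numbered libraries are paired. Their deviations from the group means had correlations of -0.139, -0.106 and 0.014 for replicates 1, 2 and 3, and libraries did not each correlate best with their own number. With 3 libraries per group these correlations cannot decide whether same-numbered libraries were handled together. With the replicate block, limma called 1 gene overall and 0 replication genes (32 higher at an unadjusted p under 0.05).

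The median log2 fold change of the set was 0.369 at a pseudocount of 0.1, 0.313 at 0.5 and 0.335 with a filter of 5 FPKM, which left 23 of the 49 genes and favours those that are high with atorvastatin. At a pseudocount of 0.1 the role medians were 0.435 (helicase), 0.417 (polymerases and primase), 0.237 (clamp, loader and single-strand binding), 0.509 (nucleotide supply) and 0.579 (chromatin assembly). At 0.5 they were 0.371 (helicase), 0.342 (polymerases and primase) and 0.501 (chromatin assembly). With the 5 FPKM filter they were 0.339 (origin licensing, 1 gene), 0.401 (helicase) and 0.185 (polymerases and primase, 2 genes). A smaller pseudocount compresses low genes less, by construction. With a library left out, medians ran from 0.078 to 0.173 (origin licensing), 0.258 to 0.371 (helicase), 0.229 to 0.34 (polymerases and primase), 0.184 to 0.243 (clamp, loader and single-strand binding), 0.25 to 0.534 (Okazaki fragment ligation), 0.398 to 0.523 (nucleotide supply) and 0.405 to 0.486 (chromatin assembly). The cause of the changes with single libraries was not tested. Scaling moved the median of all genes by 0.018 at most, and under quantile and median-ratio scaling Orc3 joined Orc1 and Orc4 below 0. Among all tested genes at an unadjusted p under 0.05, 902 were higher and 497 lower, but 734 and 683 under median-ratio scaling.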
